A study of Homo sapiens with 6 samples.

Results

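The genes examined here encode 10 transcription factors of the growth factor response, in Rh30 cells with and without knockdown of DDX5, an RNA helicase. They are the ternary complex factors ELK1, ELK3 and ELK4, their partner SRF, the related factors ETS1 and ETS2, and the early response factors FOS, FOSL1, JUN and EGR1. They were selected on the basis of their names and of an earlier look at the siDDX5 against control values, in which ELK3 differed. That contrast is therefore a description for them: no p-value is given, and where a member is said to pass a threshold this only places it in the whole table and supports nothing. All 10 genes had joined transcripts and passed the filter on low counts, among 15223 genes tested. Rh30 is an alveolar rhabdomyosarcoma line, a tumour line of muscle lineage, and is positive for the PAX3-FOXO1 fusion. There were 2 groups of 3 libraries, described as biological replicates with no word on whether each was a culture of its own, so p-values measure the spread between these libraries: Rh30 with a control treatment, and Rh30 with siDDX5. Both groups are the same fusion-positive line, so the comparison rests on 1 line, and the control reagent and the time after knockdown are not given in the sources used here. In a bulk library, fewer cells with a transcript and less of it per cell cannot be told apart.

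When a growth factor activates the ERK kinase cascade, the ternary complex factors are phosphorylated. They sit beside a dimer of SRF on the CArG box of the serum response element. Transcription of immediate early genes such as FOS and EGR1 then starts within minutes, without new protein synthesis. SRF also works with a different set of partners, the myocardin-related factors, which respond to actin. AP-1 is a dimer, formed by JUN with a FOS-family protein such as FOS or FOSL1, or by JUN with itself. ELK3, also called NET or SAP-2, is known as a factor that represses its targets until it is phosphorylated.

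The windows of 250 bases before the annotated start of ELK3, EGR1 and SRF are shown because ELK3 differed between the groups and EGR1 between libraries, and because EGR1 and SRF carry the site that SRF binds. Sequences are from RefSeq, build GRCh38.p14, plus strand, 5′ to 3′. Capitals mark CArG boxes and CCGGAA, a form of the site that ETS factors bind. Other forms with the shorter core GGAA, which the ELK3 and EGR1 windows also hold, were not searched for or marked. ELK3 lies at chr12:96194125-96194374, EGR1 at chr5:138465229-138465478 and SRF at chr6:43171019-43171268.
ELK3: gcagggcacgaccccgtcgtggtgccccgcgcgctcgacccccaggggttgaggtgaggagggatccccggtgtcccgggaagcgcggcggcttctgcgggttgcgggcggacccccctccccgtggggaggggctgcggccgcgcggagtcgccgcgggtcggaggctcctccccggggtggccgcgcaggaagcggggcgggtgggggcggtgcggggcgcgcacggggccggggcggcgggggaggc
EGR1: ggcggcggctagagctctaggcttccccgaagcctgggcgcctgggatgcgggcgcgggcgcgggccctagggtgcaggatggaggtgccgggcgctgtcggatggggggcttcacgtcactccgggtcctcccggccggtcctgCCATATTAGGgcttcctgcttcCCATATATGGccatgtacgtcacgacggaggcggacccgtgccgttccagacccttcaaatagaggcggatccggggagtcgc
SRF: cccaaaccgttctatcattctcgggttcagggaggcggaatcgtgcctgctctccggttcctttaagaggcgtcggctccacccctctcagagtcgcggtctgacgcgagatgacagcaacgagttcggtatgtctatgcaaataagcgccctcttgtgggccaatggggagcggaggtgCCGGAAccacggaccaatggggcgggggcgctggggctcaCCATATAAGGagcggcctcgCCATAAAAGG

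Both strands of each window were searched for the CArG box, for CCGGAA and for the AP-1 word TGANTCA, and no matches of different words overlapped. The CArG box was present in 1.16% of 35116 windows of this length, CCGGAA in 14.5% and TGANTCA in 6.57%. At least 2 CArG boxes were present in 11 windows, or 0.0313%, and EGR1 and SRF were among these. In EGR1 they began 105 and 83 bases before the start (CCATATTAGG and CCATATATGG). In SRF they began 30 and 10 bases before it (CCATATAAGG and CCATAAAAGG), and CCGGAA began 70 bases before it. ELK4 held CCGGAA at 22 bases before its start and, on the other strand, at 185 bases. The windows of ELK1, ELK3, ETS2, FOS and JUN held neither of these words, and no window of a member held TGANTCA. The JUN window held TGACATCA, a longer form of the AP-1 site that TGANTCA does not match. That form was not counted. The main ELK3 window was 82% G and C. The serum response element of FOS is known to lie further upstream than this window. Of the 10 genes, 8 were in the table, and ETS1 and FOSL1 were not matched. These matches describe letters, not bound sites.

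The libraries held 18202402 to 26156858 estimated counts. DDX5, the targeted gene, had 1137 to 1434 CPM (estimated counts scaled to library size with TMM factors) in control and 396 to 549 CPM in siDDX5 libraries, as the labels imply. The 6 markers of rhabdomyosarcoma that were checked, MYOD1, MYOG, DES, PAX3, FGFR4 and MYCN, summed to 974 to 1412 CPM in control libraries and 1025 to 1126 CPM in siDDX5 libraries. Leukocyte markers summed to 2.04 to 2.78 CPM in control and 1.29 to 3.05 CPM in siDDX5 libraries. Epithelial markers summed to 1.52 to 2.24 CPM in control and 2.30 to 2.76 CPM in siDDX5 libraries, without overlap, and KRT5 stayed at or below 0.0494 CPM. CDH1 and the leukocyte marker CD14 were higher in every siDDX5 library than in any control, at 2.65 and 1.09 CPM at most. The epithelial marker EPCAM, which did not pass the filter, was lower in every siDDX5 library than in any control. It had 0.185 to 0.247 CPM in control and 0.108 to 0.148 CPM in siDDX5 libraries. The leukocyte marker PTPRC had a log2 fold change of -0.69, with overlapping groups. The part of these markers in the results was not tested. Endothelial markers summed to 11.2 to 15.8 CPM, nearly all of it PECAM1, while CDH5 stayed at or below 0.248 CPM. One library stood apart for EGR1 and FOS, control replicate 1, and their values are given with and without it.

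ELK3 was the one member whose groups did not overlap. It had 101, 122 and 100.5 CPM in control replicates 1, 2 and 3, and 56.2, 61.3 and 47.8 CPM in siDDX5 replicates 1, 2 and 3. Every siDDX5 library thus lay below every control library. The means were 108 ± 11.95 CPM in control libraries and 55.1 ± 6.79 CPM in siDDX5 cells (SD, n = 3 per group), a log2 fold change of -0.97 with a standard error of 0.13, or 1.96-fold lower. The level rests on 2436 to 2629 estimated counts per control library and 870 to 1137 per siDDX5 library. ELK3 (ENSG00000111145.7) lies on the plus strand of chromosome 12, from 96194382 to 96269835 in GRCh38.

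In the table of all genes, ELK3 was the 1 member of 10 on the called side of the threshold, an edgeR adjusted p below 0.05, against 0.164% of all genes in either direction and 0.112% in the lower direction. By fold change ELK3 was number 10 from the lowest of the 17 genes called lower. With the replicate number as a block, ELK3 was again the single member on that side, against 2.59% of all genes, and its log2 fold change was -0.97 (SE 0.09). Groups did not overlap for 1 of the 10 members, against 18.1% of all genes tested. The values that place ELK3 there are those on which the set was selected, so nothing is read from these counts. When single libraries were left out, ELK3 stayed past the threshold in 1 of 6 fits, the one without control replicate 3. Its log2 fold change in those fits ran from -1.05 to -0.87.

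For the other ternary complex factors the groups overlapped. ELK1, the best studied of them, had 67.6, 70.1 and 58.9 CPM in control libraries and 71.2, 80.2 and 66.01 CPM in siDDX5 replicates 1, 2 and 3. Its groups overlapped, with a log2 fold change of 0.15 (SE 0.12). ELK4, also called SAP-1, had 177, 214 and 239 CPM in control libraries and 230.1, 192 and 226 CPM in siDDX5 replicates 1, 2 and 3. Its lowest and its highest library were both controls, and its log2 fold change was 0.04 (SE 0.13). ELK1 (ENSG00000126767.17) lies on the X chromosome from 47635521 to 47650604, and ELK4 (ENSG00000158711.13) on chromosome 1 from 205597556 to 205631962, both on the minus strand.

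On the TPM scale, which allows for transcript length and so lets genes be compared, ELK3 was the level partner of ELK4 in control cells and not in siDDX5 cells. ELK3 had 54.3 ± 6.26 TPM in control cells, beside 52.7 ± 4.61 TPM for ELK4 and 30.8 ± 2.53 TPM for ELK1 (SD, n = 3 per group). In siDDX5 cells ELK3 had 29.2 ± 2.97 TPM, ELK4 48.5 ± 6.61 TPM and ELK1 33.1 ± 2.54 TPM (SD, n = 3 per group). ELK3 made up 38.9%, 41.2% and 37.9% of the summed TPM of the 3 genes in control replicates 1, 2 and 3, and 26.6%, 27.1% and 25.2% in siDDX5 replicates 1, 2 and 3. ELK1 and ELK4 made up the rest: the ELK1 share was 20.8% to 24% in control and 28.5% to 33% in siDDX5 libraries, and the groups did not overlap. For ELK4 the share was 36.4% to 41.3% in control and 39.9% to 46.4% in siDDX5 libraries, with overlap. The summed level was 138 ± 10.7 TPM in control and 111 ± 9.84 TPM in siDDX5 cells (SD, n = 3 per group), and every siDDX5 library was below every control library. The shares and the sum include ELK3, on whose values the set was selected, so nothing is read from their lack of overlap. The TPM of ELK1 itself overlapped, at 28.3 to 33.3 in control and 30.2 to 34.9 in siDDX5 libraries.

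**Figure D1:**
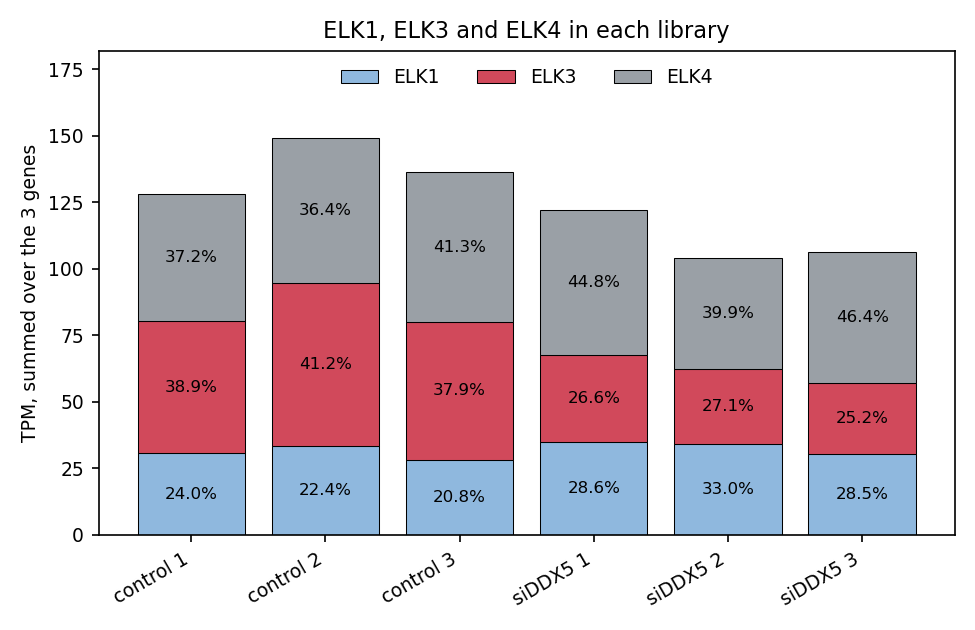
TPM of ELK1, ELK3 and ELK4 stacked for each of the 6 libraries, with each gene's percent of the sum written in its segment. The ELK3 segment is 37.9% to 41.2% in the control and 25.2% to 27.1% in the siDDX5 libraries.

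SRF, the factor the 3 bind with, had 80.3, 76.8 and 59.6 CPM in control libraries and 83.9, 94.5 and 78.2 CPM in siDDX5 replicates 1, 2 and 3. Within each replicate number the siDDX5 library was the higher one, but the groups overlapped, since siDDX5 replicate 3 lay below control replicate 1. The log2 fold change was 0.24 (SE 0.14), and 0.25 (SE 0.09) with the replicate block. It lies on chromosome 6 from 43171299 to 43181507 on the plus strand (ENSG00000112658.7).

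ETS1 and ETS2 bind the same GGAA core as the ternary complex factors but do not need SRF, and are themselves targets of ERK. ETS1 had 252, 237 and 288 CPM in control libraries and 275, 247 and 277 CPM in siDDX5 replicates 1, 2 and 3, and ETS2 had 26.5, 27.3 and 30.1 CPM and 26.9, 32 and 28.9 CPM. Both groups of both genes overlapped, and the log2 fold changes were 0.04 (SE 0.11) for ETS1 and 0.06 (SE 0.12) for ETS2. ETS1 (ENSG00000134954.14) lies on chromosome 11 from 128458761 to 128587558 and ETS2 (ENSG00000157557.11) on chromosome 21 from 38805307 to 38824955.

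EGR1, a zinc finger factor and a classic SRF target, was the most variable member. It had 147 CPM in control replicate 1, but 35.4 and 28.7 CPM in the other controls, replicates 2 and 3. The siDDX5 replicates 1, 2 and 3 had 15.4, 34.3 and 19.6 CPM, so siDDX5 replicate 2 lay between control replicates 2 and 3 and the groups overlapped. The log2 fold change of -1.61 had a standard error of 0.57. It was -0.47 without control replicate 1, -1.25 with the replicate block and -0.25 without both libraries numbered 1, and fits without any other single library gave -2.01 to -1.38. EGR1 (ENSG00000120738.7) lies on chromosome 5 from 138465490 to 138469315 on the plus strand.

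FOS, the AP-1 subunit that is the textbook immediate early gene, showed the same library on top. It had 13.4 CPM in control replicate 1 and 5.41 and 6.27 CPM in control replicates 2 and 3, against 4.15, 7.85 and 5.67 CPM in siDDX5 replicates 1, 2 and 3. These levels rest on 84 to 344 estimated counts, the fewest of any member. The log2 fold change was -0.51 (SE 0.36) with overlapping groups, 0.02 without control replicate 1 and 0.21 without both libraries numbered 1. FOS (ENSG00000170345.9) lies on chromosome 14 from 75278774 to 75282230 on the plus strand.

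How far control replicate 1 stood from the other controls was examined for all genes, a comparison chosen after these values were seen. EGR1 in control replicate 1 was 4.58 times the mean of control replicates 2 and 3, and FOS 2.29 times. The middle 90% of all genes tested lay between 0.642 and 1.45 times, with a median of 0.995. Among the 10993 genes that averaged 5 CPM or more, EGR1 had the second highest ratio, after C1QTNF2 at 8.85, which was listed at 0 in control replicate 2. Of the other immediate early genes on the list below, EGR2 had a ratio of 2.66 (1.91 CPM in control replicate 1), CCN1 1.79, JUNB 1.6 and KLF2 1.51. The list was not high as a whole in this library, since 18 of 35 genes were above 1, the median ratio was 1.02 and 4 of 35 were highest there of all 6 libraries, against 19.2% of all genes. The part of this library's handling or growth state in the EGR1 and FOS values was not tested.

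**Figure D2:**
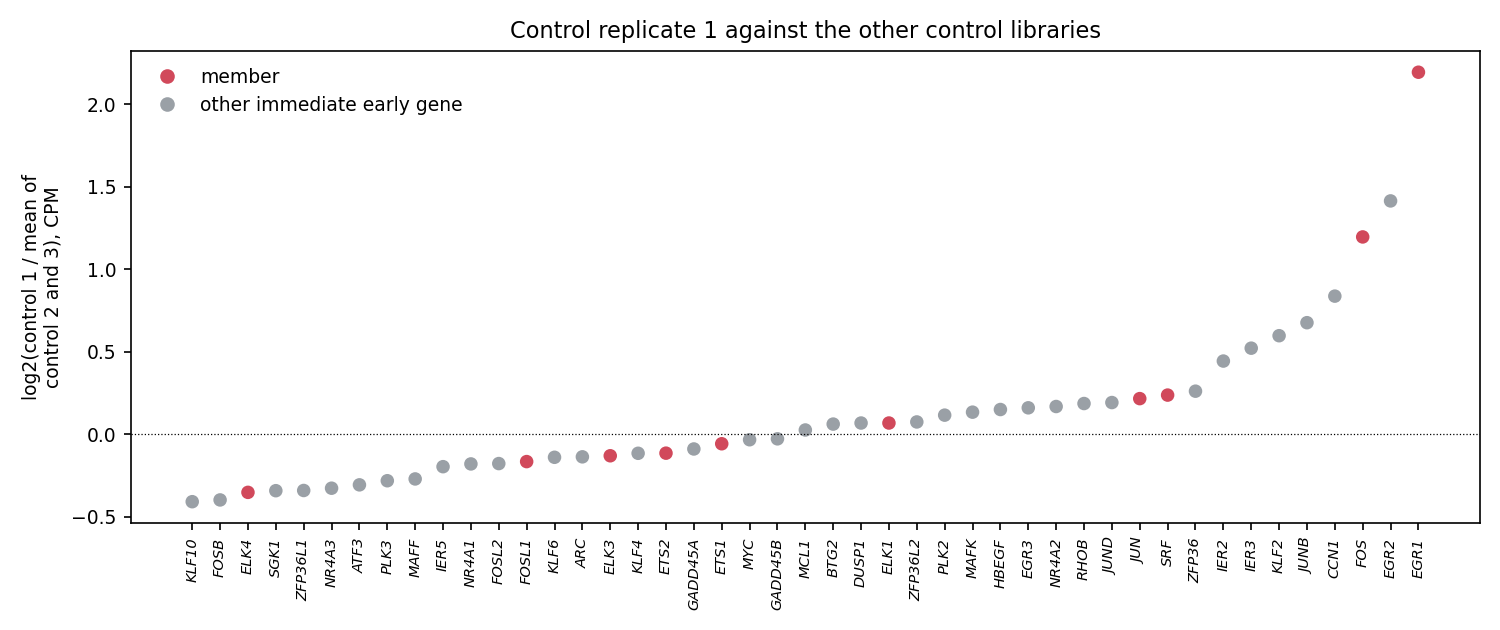
Level in control replicate 1 divided by the mean of control replicates 2 and 3, on a log2 scale, for the 10 members (red) and 35 other immediate early genes (grey), in rising order. EGR1 and EGR2 are highest with ratios of 4.58 and 2.66, followed by FOS at 2.29, and most genes lie near 0 on the log2 axis.

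JUN and FOSL1, the better expressed AP-1 members, did not share that pattern. JUN, the subunit that can pair with itself, had 305, 225 and 299.9 CPM in control libraries and 270.1, 299.8 and 318 CPM in siDDX5 replicates 1, 2 and 3. FOSL1, also called FRA-1 and known as a slower ERK-dependent gene than FOS, had 48.02, 50.7 and 57.2 CPM in control libraries and 53.1, 63.5 and 61.1 CPM in siDDX5 replicates 1, 2 and 3. Groups overlapped for both, with log2 fold changes of 0.10 (SE 0.14) for JUN and 0.19 (SE 0.12) for FOSL1. Within each replicate number ELK1, SRF and FOSL1 were higher and ELK3 and EGR1 lower in the siDDX5 library, so 5 of 10 members had 1 direction in all pairs, against 43.0% of all genes tested. JUN (ENSG00000177606.6) lies on chromosome 1 from 58780788 to 58784327 and FOSL1 (ENSG00000175592.8) on chromosome 11 from 65892049 to 65900573, both on the minus strand.

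**Figure D3:**
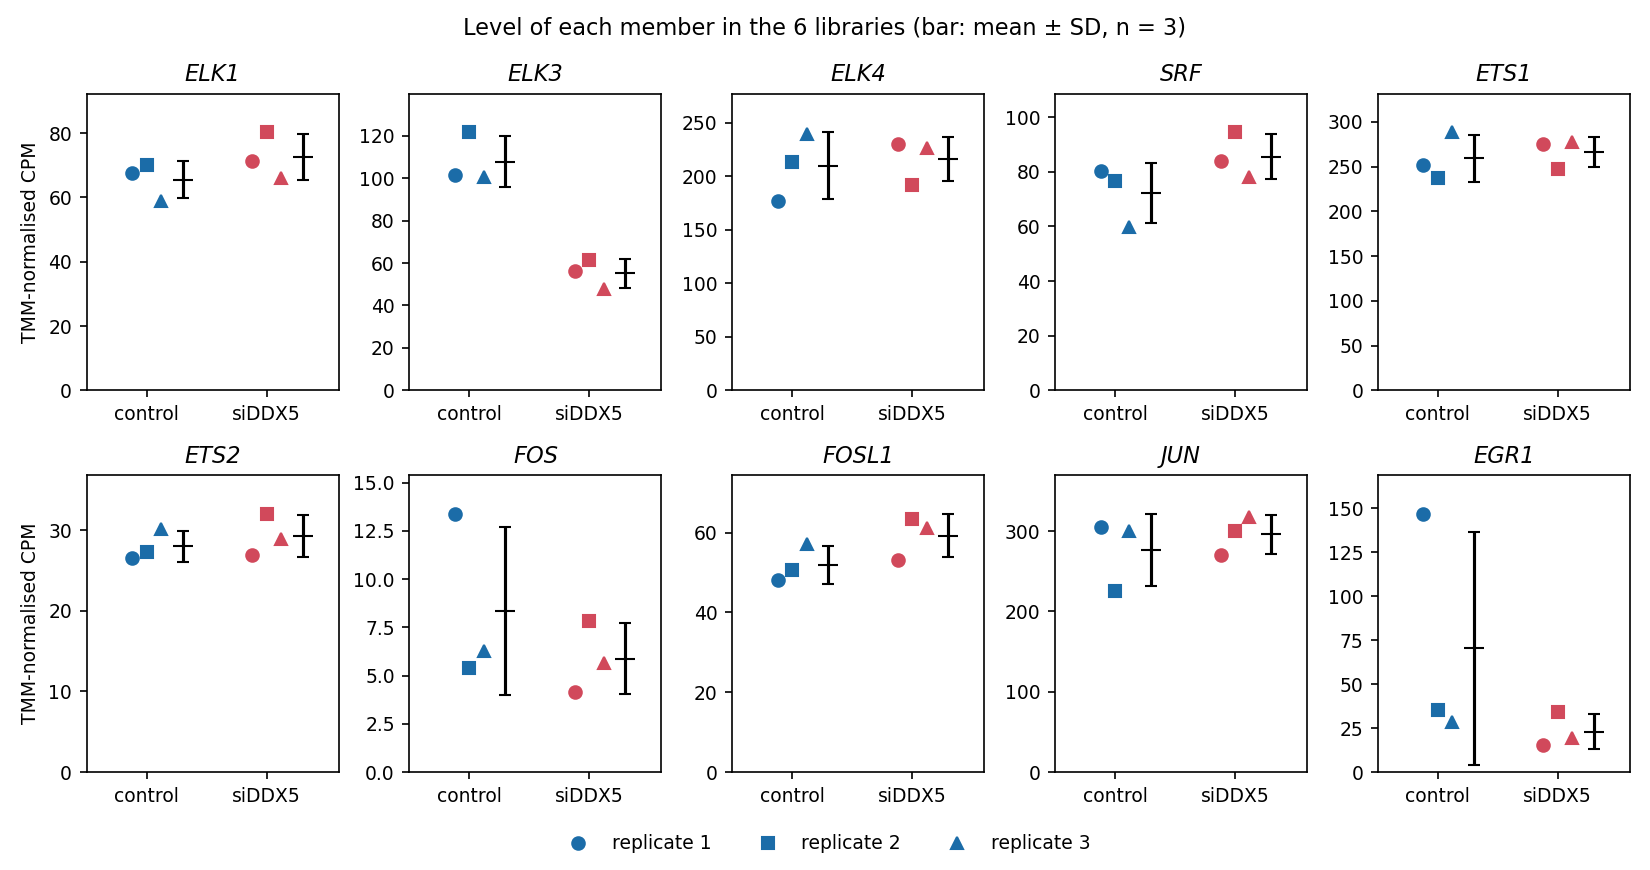
TMM-normalised CPM of each member, 1 panel per gene with its own axis from 0, control in blue and siDDX5 in red, with mean ± SD (n = 3) as bars and replicates 1, 2 and 3 as circle, square and triangle. ELK3 is the one panel in which the groups separate, and EGR1 and FOS are set by the circle of control replicate 1 at 147 and 13.4 CPM.

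In all, 7 members had a log2 fold change above 0 and 3 below, with a median of 0.05 beside 0.00 (-0.00162) for all genes tested. The signs of ELK4, ETS1, ETS2 and JUN were not stable. Their values were above 0 in 10, 12, 15 and 15 of 16 alternative fits. ELK1, SRF and FOSL1 were above 0 and ELK3 and EGR1 below 0 in all 16, and FOS was below 0 in 14.

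Ranked by TPM, the order in control cells was JUN at 109 ± 17.5, ETS1 at 102 ± 12.5, ELK3, ELK4, FOSL1 at 46.2 ± 5.47, ELK1, EGR1 at 29.6 ± 27.6, SRF at 19.5 ± 2.64, ETS2 at 16.3 ± 2.49 and FOS at 7.29 ± 3.09 (SD, n = 3 per group). The ranges of neighbours in this order overlapped except for ETS1 and ELK3, FOSL1 and ELK1, and ETS2 and FOS. In siDDX5 cells ELK3 came sixth, after JUN, ETS1, FOSL1, ELK4 and ELK1, and its range overlapped that of ELK1 but not that of SRF below it. EGR1 was ninth there, at 9.48 ± 3.37 TPM (SD, n = 3).

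The members' transcripts were examined next, as shares of each gene's estimated counts, which are the quantifier's division of reads and carry no test here. ELK3 was carried almost wholly by ENST00000228741.8, a protein-coding transcript of 4201 bases, with 97.2% ± 0.265 of its counts in control and 95.4% ± 1.57 in siDDX5 cells (SD, n = 3 per group). That transcript had 2365 to 2550 estimated counts in control and 821 to 1100 in siDDX5 libraries. ELK4 was likewise carried by ENST00000357992.8 (97.1% ± 0.933 and 97.97% ± 0.465, SD, n = 3 each), and SRF, JUN and EGR1 have 1 transcript each in the tables. ELK1 was divided between ENST00000247161.7 and ENST00000376983.8, whose shares varied from library to library but had nearly the same means in both groups (45.2% in both for the first).

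ETS1 and FOSL1, whose gene levels overlapped between groups, had transcripts whose shares did not. The ETS1 transcript ENST00000535549.5 held 9.40%, 8.85% and 7.87% of its counts in control and 15.3%, 19.3% and 13.4% in siDDX5 replicates 1, 2 and 3. ENST00000392668.8, the most abundant one, held 66.5% ± 0.851 in control and 61.9% ± 2.78 in siDDX5 cells, and ENST00000526145.6 20.4% ± 1.04 and 18.8% ± 0.355 (SD, n = 3 per group). For FOSL1, ENST00000448083.6 held 28.05% ± 4.57 in control and 33.2% ± 0.853 in siDDX5 cells, and ENST00000531493.5 11.7% ± 2.05 and 7.37% ± 0.828 (SD, n = 3 per group). Without control replicate 1, where ENST00000448083.6 held 22.8%, its difference fell from 5.15 to 2.52 percentage points. These 5 were the transcripts without overlap among the 18 that held at least 5% of a member's counts in either group, 3 of which are the sole transcript of their gene. Of the other 15, 5 did not overlap, against 14.5% of 41725 such transcripts of all genes tested, and shares within a gene depend on each other.

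**Figure D4:**
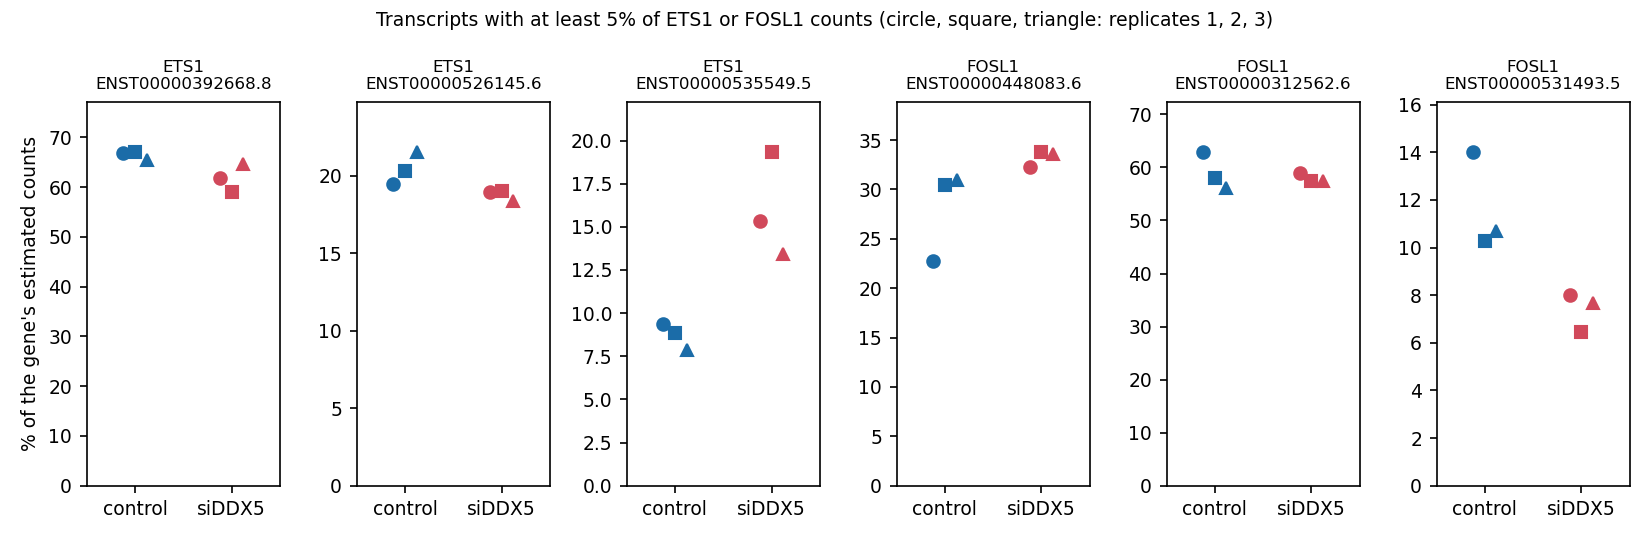
Share of the gene's estimated counts on each ETS1 and FOSL1 transcript with at least 5%, in percent, 1 panel per transcript with its own axis from 0, for control (blue) and siDDX5 (red). The groups separate in 5 of the 6 panels, most widely for ENST00000535549.5, with means of 8.71% and 16.03%.

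Genes around ELK3 were looked at as well. Within 750 kb on either side, 10 protein-coding genes were tested, and 0 were called by edgeR, without or with the replicate block. None had an unadjusted p under 0.05 without the block. With it METAP2 alone did (edgeR p 0.0185, adjusted p 0.153), with a blocked log2 fold change of 0.24. Without the block the log2 fold changes of the 10 genes ran from -0.24 (NTN4) to 0.59 (USP44). CDK17, the neighbour on the downstream side, was at 0.03. Groups overlapped for all 10.

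The 5 protein-coding genes whose log2 CPM followed ELK3 most closely over the 6 libraries, of 10743 that averaged 5 CPM or more, were SETD1A (Pearson r 0.993), PIDD1 (0.99), MAP3K6 (0.987), TAMM41 (0.987) and ENOX2 (0.986). These are descriptions over 6 libraries that share 2 groups, so genes that separate the groups rank high by construction. None of the 5 was called by edgeR without the replicate block, and SETD1A, PIDD1 and ENOX2 were called with it (adjusted p 0.0125, 0.013 and 0.0125), which the choice of genes that follow ELK3 favours. SETD1A, a histone H3K4 methyltransferase, had 66.03, 73.5 and 66.8 CPM in control libraries and 46.9, 48.1 and 45.05 CPM in siDDX5 replicates 1, 2 and 3.

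The other genes of these pathways were counted in 7 lists, for which the background shares are those given above. None of the 128 list genes tested, of 143 listed, was called in the edgeR fit without the block. In that fit 14 had an unadjusted p under 0.05 (5 higher, 9 lower), where all genes tested had 11.4%. The DESeq2 Wald test called 3. With the replicate block 3 were called, all lower, which is 2.34% against 2.59% of all genes. In the blocked edgeR fit 35 of the 128 had an unadjusted p under 0.05, against 3124 of all 15223 genes.

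Of 23 other ETS family genes, 15 passed the filter and 8 were too low to test. With the block 2 fell and 0 rose. ETV1, a factor of the PEA3 group, had 27.1, 26.3 and 22.7 CPM in control libraries and 17.3, 16.3 and 13.9 CPM in siDDX5 replicates 1, 2 and 3. No library of one group reached the other, and the log2 fold change was -0.68 (SE 0.14), with an adjusted p from edgeR of 0.0895, and of 0.0125 under the block. FLI1, a factor known from blood and from Ewing sarcoma fusions, went from 3.87 ± 0.39 to 2.06 ± 0.157 CPM (SD, n = 3 per group), or -0.92 in log2 units (SE 0.21), with an adjusted p from edgeR of 0.144, and of 0.0445 under the block. The list's median was -0.19, with 12 genes below 0 and 3 above.

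Of 17 output and feedback genes of ERK, all tested, 1 fell with the block. SPRED2, which restrains RAS to ERK signalling, had 58.9, 53.6 and 53.04 CPM in control libraries and 40.5, 32.3 and 31.3 CPM in siDDX5 replicates 1, 2 and 3, without overlap. Its log2 fold change was -0.67 (SE 0.13), with an adjusted p from edgeR of 0.0781, and of 0.01 under the block. The most abundant of the list, CCND1 and SPRY2, had log2 fold changes of -0.12 (SE 0.13) and -0.11 (SE 0.19) and were not called, and the list's median was -0.10.

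Of 38 other immediate early genes, 35 were tested and 0 were called by edgeR in either fit. Without the block 7 had an unadjusted p under 0.05 (5 higher, 2 lower), where all genes had 11.4%. With the block the same 7 did, and so did BTG2 (edgeR p 0.00966), CCN1 (edgeR p 0.0232), FOSL2, ATF3, KLF10, MYC and MCL1. These further genes were all higher in siDDX5, and the lower ones were the same 2, NR4A2 and KLF2. In the blocked fit 3124 of all 15223 genes tested had such a p. PLK2, a serum-induced kinase, had 209 ± 38.3 CPM in control libraries and 291 ± 14.8 CPM in siDDX5 cells (SD, n = 3 per group; edgeR adjusted p 0.248, and 0.0774 with the block). CCN1, a secreted matrix protein, had 500 CPM in control replicate 1, 257 and 303 CPM in control replicates 2 and 3, and 475, 485 and 426 CPM in siDDX5 replicates 1, 2 and 3. The median was 0.07.

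Of 30 cytoskeleton genes that SRF is known to regulate with the myocardin-related factors, 29 were tested, and 0 were called by edgeR in either fit. Without the block 1 had an unadjusted p under 0.05. With the block ACTG1 (edgeR p 0.0318), ACTA2, CCN1, CCN2, TAGLN, TPM4 and FILIP1L did and were higher in siDDX5. MYH9 (edgeR p 0.0375), TPM2 and ACTN4 did and were lower. In the blocked fit 3124 of all 15223 genes tested had such a p. The most abundant, ACTB and ACTG1, had log2 fold changes of -0.27 (SE 0.18) and 0.33 (SE 0.18), and the median was 0.07. Among 14 genes for the myocardin-family cofactors and their regulators, 13 were tested and 0 called, with 1 at an unadjusted p under 0.05 without the block. That was RHOA, the small GTPase that drives actin assembly, with 454 ± 40.1 CPM in control libraries and 349.8 ± 33.4 CPM in siDDX5 cells (SD, n = 3 per group; edgeR adjusted p 0.26, and 0.113 with the block). With the block RHOA and the cofactor MRTFB had an unadjusted edgeR p of 0.00916 and 0.0274, and both were lower in siDDX5. DIAPH1, a formin, was at -0.12 (SE 0.10).

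Of 16 other AP-1 subunits and dimer partners, 14 were tested, 0 were called by edgeR in either fit and 0 had an unadjusted p under 0.05 without the block. FOSL2 had 206, 143 and 324 CPM in control libraries and 236, 204 and 372 CPM in siDDX5 replicates 1, 2 and 3. Replicate 3 was the highest and replicate 2 the lowest in both groups, and the siDDX5 library was the higher within each number. Its log2 fold change was 0.27 (SE 0.29), and 0.30 (SE 0.10) with the block. FOSL2 and ATF3 had an unadjusted edgeR p of 0.0134 and 0.0265 with the block (adjusted p 0.134 and 0.18). MAFG was at -0.02 (SE 0.11). All 18 kinases and scaffolds of the ERK pathway and its JNK and p38 relatives were tested, and 0 were called by edgeR in either fit. Without the block 2 had an unadjusted p under 0.05. RPS6KA3, an ERK-activated kinase, had a log2 fold change of 0.04 (SE 0.11).

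**Figure D5:**
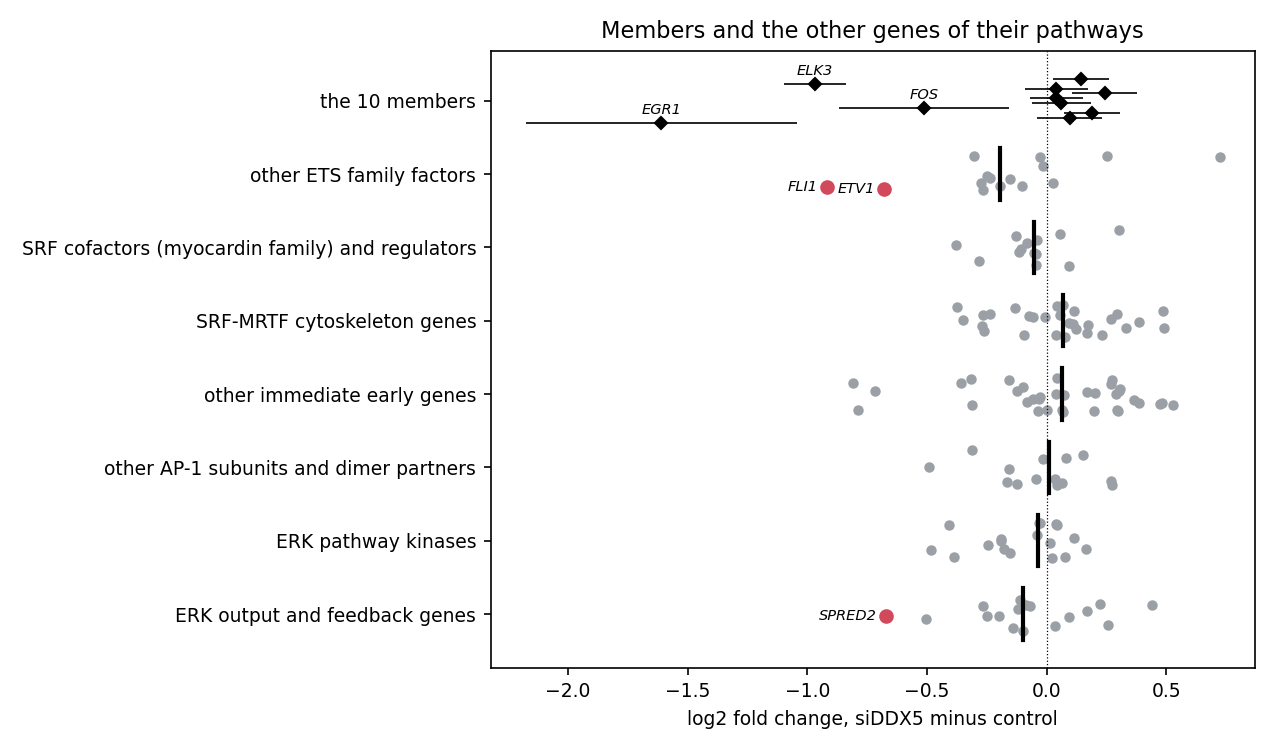
Log2 fold change of siDDX5 minus control for the 10 members (black diamonds, bars are standard errors) and for the tested genes of 7 pathway lists (grey points, list median as a vertical line). The genes called with the replicate block, FLI1, ETV1 and SPRED2, are red, and the list medians lie between -0.19 and 0.07.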

How the data were processed

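Messenger RNA of 6 Rh30 libraries, 3 control and 3 siDDX5, was sequenced with a stranded kit, per the labels. The submitters' processing notes name bcl2fastq 2.20, FastQC 0.11.8, cutadapt 1.11 and kallisto 0.46.0, and the build GRCh38. The annotation is not given in the sources used here. The deposited tables hold an estimated count per transcript, not normalized, and a TPM value that the authors' quantifier scaled by effective length to the same total in each library.

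Transcripts were joined to genes with GENCODE release 29: 169797 of 188753 (90.0%) by identifier, 15291 by symbol and 890 by position between transcripts of one gene. All transcripts of the members were joined by identifier. Counts were summed per gene, rounded, filtered (filterByExpr), normalized by TMM and put through glmQLFTest of edgeR 4.0.16 (R 4.3.3), over all genes with Benjamini-Hochberg adjustment, and a gene was called at an adjusted p under 0.05. A standard error is the log2 fold change divided by the square root of F. A count of 3 equals 0.115 to 0.165 CPM.

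Same-numbered libraries deviated together over 15223 genes (correlations 0.21, 0.27 and 0.58). The numbers, which come from the titles, were therefore taken as pairs. The reported fit nevertheless leaves this pairing out, and calls, standard errors and unadjusted counts ignore it unless the block is named. A fit blocked on that number was an alternative, and is given where it changes a call and for some other genes. The block matters: 395 genes were called with it and 25 without. The spread between libraries (edgeR's biological coefficient of variation) was 10.2% with it and 15.7% without. Alternatives were DESeq2 1.42.0, DESeq2 size factors, other filters, length-scaled TPM counts, limma 3.58.1 on log2(TPM + 1) and log2(TPM + 0.1), the block, identifiers alone, and leaving out each library. Simulated data with 200 changed genes were put through 3 of the fits. The edgeR fit without the block recovered 80.0% with 14 false calls, the blocked fit 78.0% with 30, and DESeq2 84.5% with 31. The simulation held no replicate effect, so it cannot show how the block performs where there is one.

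The members and lists were chosen with earlier results of these data known. Named list genes were those called without or with the block with a mean of at least 1 CPM (at most the 4 largest changes), and also the 2 most abundant where fewer than 2 were called. Outside that rule, further list genes were named for an unadjusted p under 0.05. Genes like ELK3 were the 5 with the highest Pearson correlation. Genes named for control replicate 1, and the neighbours of ELK3, were chosen after their values were seen. One gene that this rule names is not reported here.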

Additional observations from a re-analysis of the deposited data

How the results depend on the processing

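ELK3 was lower in siDDX5 cells in all 16 alternatives, with log2 fold changes from -1.05 to -0.85, and was past the threshold in 7 of them, given as a description since the set was selected on this contrast. The call was lost when counts came from length-scaled TPM (-0.85), under limma-trend with log2(TPM + 1) (-0.87) or log2(TPM + 0.1) (-0.89), in 5 of the 6 fits without one library (-1.05 to -0.87 over the 6), and in the fit without both libraries numbered 1 (-1.02), which was added after the data had been examined. The number of genes called, 25 in the reported fit, was 395 with the replicate block, 323 by DESeq2's Wald test, 136 when no filter was used, 2 with length-scaled TPM counts, 1 with each limma-trend setting, 0 to 15 without one library and 0 without both libraries numbered 1 (1432 at an unadjusted p under 0.05). The fits with 0 were those lacking control replicate 1 or siDDX5 replicate 1, and there 1244 and 2042 genes had an unadjusted p under 0.05. All 25 genes were among those called with the block, with DESeq2 and with no filter. The number of pathway list genes called, 0 in the reported fit, was 3 with the replicate block (ETV1, FLI1 and SPRED2), 3 with the DESeq2 Wald test (ETV1, SPRED2 and PLK2) and 2 with no filter (ETV1 and SPRED2), and 0 in the other alternatives. Beside these and SETD1A, PIDD1 and ENOX2, which it also brought past the threshold, the replicate block changed no call of a gene named here. Where a result changed, the cause was not tested. FOS, with 84 to 344 counts per library, is the member that depth limits most, and the standard errors leave out the uncertainty of dividing reads among transcripts.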
